A study of Mus musculus with 9 samples.

Results

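Erythroid membrane and enzyme genes are 9 genes whose products equip the developing and mature red cell. They comprise the erythropoietin receptor (Epor), 5 other membrane proteins (Kel, Aqp1, Tspan33, Slc4a1 and Ermap), the carbonic anhydrases Car1 and Car2, and the alpha-globin Hba-a1. The genes themselves were chosen with earlier results of these data known. Every array probe whose accession belongs to one of them was then taken, without regard to the probe's values. This gave 10 probes, of 41174 distinct probes on the array, with 1 probe for each gene except Tspan33, which had 2. All 9 genes were bright enough to be tested, among 15808 named genes. The groups compared were FDCPmix cells, a mouse multipotent hematopoietic progenitor line, transduced in self-renewal conditions with a lentivirus that carried shRNA (short hairpin RNA, which lowers its target's messenger RNA) against Gata2 (Gata2 KD), shRNA against Pu.1 (Pu.1 KD) or no insert (empty vector, EV). Each group had 3 arrays of total RNA from GFP+ cells sorted 5 days after transduction. All 3 groups share the cell line, the viral backbone and the sort, the line stands for 1 culture system rather than for marrow, and the labels describe the samples as transduced in triplicate without saying whether these came from separate starting cultures, so p-values measure the spread between these samples.

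Erythropoietin binds its receptor on erythroid progenitors and signals through JAK2 and STAT5 to support their survival. As the cells mature they place transporters, channels and blood group proteins in the membrane, and they fill with hemoglobin. Carbonic anhydrase hydrates carbon dioxide to bicarbonate, which the anion exchanger encoded by Slc4a1 (band 3) moves across the membrane. Gata2 encodes the transcription factor GATA2 of stem and progenitor cells, and Pu.1 (Spi1) encodes PU.1, a transcription factor of myeloid and B cells. GATA1, the related erythroid factor, acts on many genes of this group.

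GATA factors bind short letter runs of the type AGATAA, and the promoters of the genes that moved together are shown here for that reason. RefSeq promoter entries (build GRCm38.p6) were found for 6 of the 9 genes, namely Epor, Kel, Aqp1, Tspan33, Ermap and Hba-a1, and the first 4 of these were called in the comparisons against EV. The 250 bases before the annotated start of transcription are given 5′ to 3′ on the strand of the gene. Capitals mark the letters GATA with A or T before and A or G after them, which gives the forms AGATAA and AGATAG as well as those that begin with T, namely TGATAA and TGATAG, read on either strand.
Epor promoter, chr9:21963577-21963826, minus strand: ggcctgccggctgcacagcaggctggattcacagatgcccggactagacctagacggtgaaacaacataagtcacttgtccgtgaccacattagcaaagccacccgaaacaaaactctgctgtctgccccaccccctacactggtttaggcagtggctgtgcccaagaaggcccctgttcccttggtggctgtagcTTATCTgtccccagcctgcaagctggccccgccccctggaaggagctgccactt
Kel promoter, chr6:41704326-41704575, minus strand: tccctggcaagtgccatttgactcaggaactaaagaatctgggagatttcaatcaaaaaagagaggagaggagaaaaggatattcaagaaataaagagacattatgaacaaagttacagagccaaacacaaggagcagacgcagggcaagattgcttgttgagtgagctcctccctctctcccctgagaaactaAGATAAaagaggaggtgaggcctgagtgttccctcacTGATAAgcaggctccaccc
Aqp1 promoter, chr6:55336049-55336298, plus strand: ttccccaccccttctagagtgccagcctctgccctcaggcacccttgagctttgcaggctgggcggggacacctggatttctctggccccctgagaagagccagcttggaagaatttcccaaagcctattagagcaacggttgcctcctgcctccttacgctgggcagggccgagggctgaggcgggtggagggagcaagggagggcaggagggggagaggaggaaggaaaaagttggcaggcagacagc
Tspan33 promoter, chr6:29693964-29694213, plus strand: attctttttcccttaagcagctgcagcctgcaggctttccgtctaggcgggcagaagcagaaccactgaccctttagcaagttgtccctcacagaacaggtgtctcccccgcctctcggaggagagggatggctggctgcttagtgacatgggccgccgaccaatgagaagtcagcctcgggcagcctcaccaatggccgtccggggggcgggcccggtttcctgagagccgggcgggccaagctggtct

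The Epor stretch held 1 match, on the opposite strand, from base 54 to base 49 before the start. Kel had 2 matches on its own strand, AGATAA from base 56 to 51 and TGATAA from base 19 to 14. Neither the Aqp1 nor the Tspan33 stretch held any. Ermap had 1 match (67 to 62 bases before the start) and Hba-a1 had 1 (183 to 178), so that 2 of the 4 called genes with an entry and both of the others contained the letters. Of 32851 promoter entries of the same length, 26.5% held at least 1 match. CCNCNCCC, a run of the kind that the erythroid factor KLF1 binds, was found on either strand in Epor, Aqp1 and Tspan33 and in 45.9% of all entries, with overlapping matches counted separately (4 in Epor, 3 in Aqp1 and 1 in Tspan33). GAGGAAGT, a run of the kind that PU.1 binds, was in none of the 6 stretches and in 2.44% of all entries. These matches describe letters in a short window and were not tested against binding.

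Across the 9 arrays, 80.4% to 89.6% of the non-control spots were well above background. The number of arrays, 3 a group, limits the precision. The arrays came from 3 slides with 1 array of each group on each slide. Levels are log2 intensities relative to the array's own 75th percentile, and they can be compared between arrays for 1 probe but not between probes. The median log2 change of all tested probes was -0.09 for Gata2 KD against EV, -0.04 for Pu.1 KD against EV and -0.04 for Gata2 KD against Pu.1 KD. The targeted genes were lower in their own knockdowns, Gata2 by 1.61 on the log2 scale in Gata2 KD (change -1.61, adjusted p = 0.00414) and Spi1 with a change of -1.73 in Pu.1 KD (adjusted p = 0.00178). Spi1 was also higher in Gata2 KD than in EV (change 1.39, adjusted p = 0.0012). In bulk RNA of sorted cells, fewer cells of a type and less RNA per cell cannot be told apart.

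Epor, Kel, Aqp1, Car2 and Tspan33 were lower in Gata2 KD and higher in Pu.1 KD than in EV. Their 3 groups did not overlap, with Gata2 KD lowest, EV between and Pu.1 KD highest in each gene. For Tspan33 this holds for the brighter probe, which stands for the gene, while the groups of its dimmer probe overlapped in all 3 comparisons. Car1, Slc4a1, Ermap and Hba-a1 were called in none of the 3 comparisons. In Gata2 KD against EV, 5 of the 9 genes were called lower at an adjusted p under 0.05 (limma, Benjamini-Hochberg over all probes), against 2.24% of all 36585 tested probes, and 0 were called higher, against 2.96% (0 also at an unadjusted p under 0.05). In Pu.1 KD against EV, 5 were called higher, against 1.27% of the probes, and 0 lower, against 1.42% (0 also unadjusted). Both comparisons use the same EV arrays. Because the 9 genes were chosen with earlier results known, the shares of all probes are given as a description and not as a test. The direct comparison of Gata2 KD with Pu.1 KD, which takes no level from EV, called 5 lower against 4.77% of the probes and 0 higher against 4.86% (0 also unadjusted). The median log2 change of the 9 genes was -0.65 in Gata2 KD against EV, 0.87 in Pu.1 KD against EV and -1.52 in the direct comparison. Groups did not overlap for 5 genes in Gata2 KD against EV (18.6% of all probes), for 6 in Pu.1 KD against EV (17.3%) and for 6 in the direct comparison (25.8%). The gene added to the called ones was Hba-a1 in both cases. All 5 called genes kept their direction in every comparison under the 20 alternatives tried. However, scaling each array to its median left 0 of the 5 calls in Gata2 KD (adjusted p 0.0584 to 0.186) and 3 in Pu.1 KD (Kel, Tspan33 and Epor). A fit of only the groups compared left Kel as the 1 call in each (adjusted p = 0.0327 and 0.015). Under these settings the lower calls over all probes in Gata2 KD fell from 818 to 364 and 405. The higher calls over all probes in Pu.1 KD fell from 465 to 188 and 97.

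**Figure D1:**
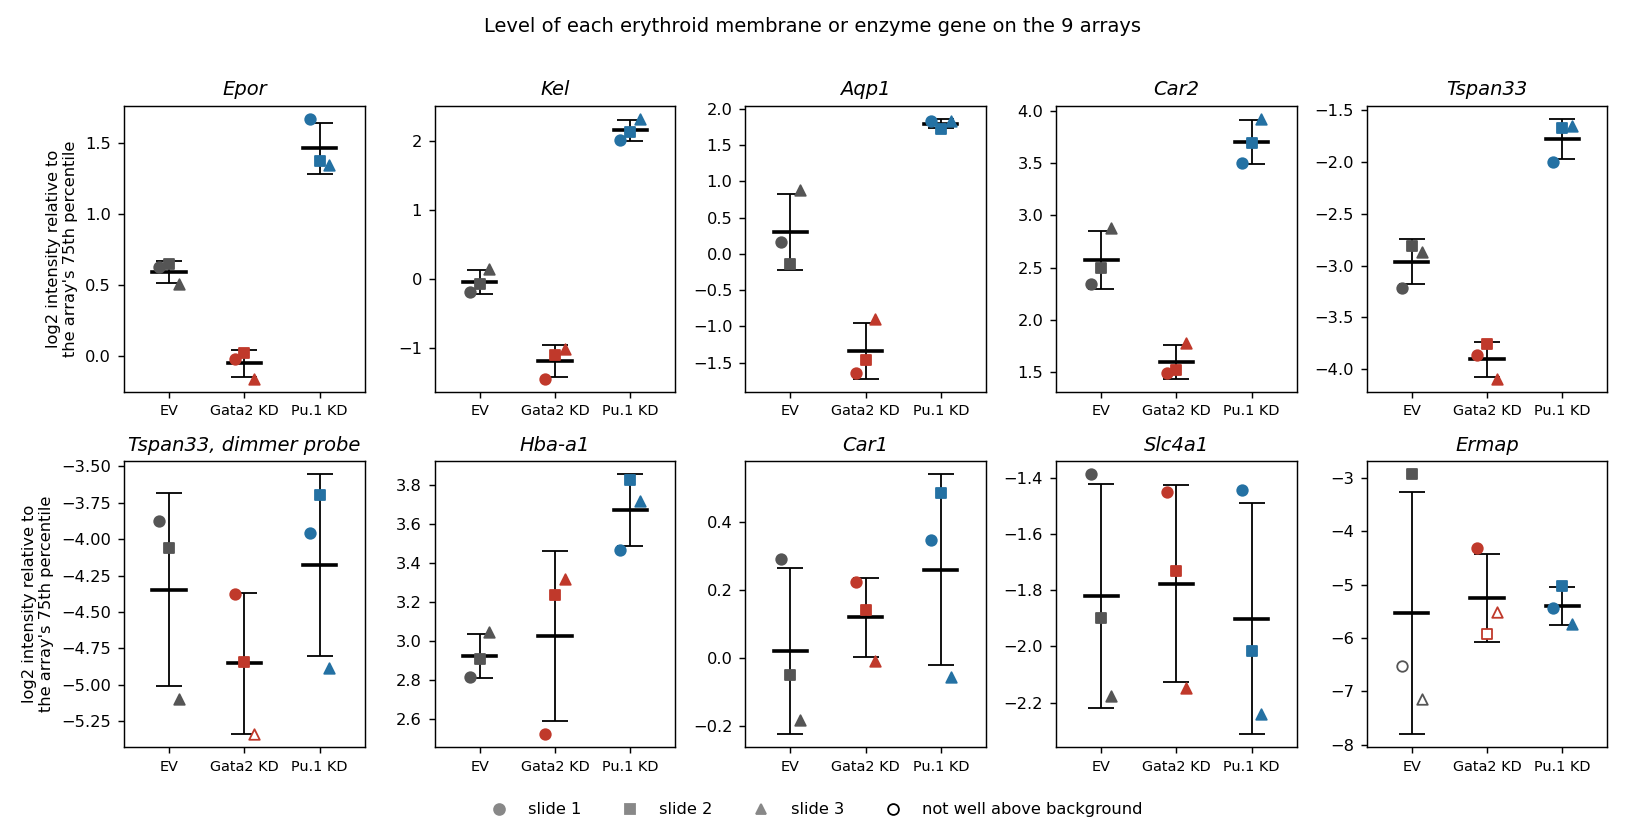
Level of each probe (y axis, log2 intensity relative to the array's 75th percentile, own scale per panel) in EV, Gata2 KD and Pu.1 KD. Points are arrays, marker shapes are slides, open points were not well above background, and bars give the mean ± SD (n = 3). In the top row the 3 groups of Epor, Kel, Aqp1, Car2 and the brighter Tspan33 probe do not overlap, while in Slc4a1 and the dimmer Tspan33 probe the array on slide 3 is the lowest of each group.

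Epor, the receptor that passes the erythropoietin signal into the cell, read 0.62, 0.50 and 0.65 in EV replicates 1 to 3, -0.16, 0.02 and -0.02 in Gata2 KD and 1.38, 1.35 and 1.67 in Pu.1 KD. The highest Gata2 KD array lay below the lowest EV array, and the lowest Pu.1 KD array above the highest EV array. Group means were 0.59 ± 0.08 in EV, -0.06 ± 0.10 in Gata2 KD and 1.47 ± 0.18 in Pu.1 KD (SD, n = 3 each). The log2 change was -0.65 in Gata2 KD (SE 0.14, 1.57-fold lower, adjusted p = 0.0353) and 0.87 in Pu.1 KD (SE 0.14, 1.83-fold higher, adjusted p = 0.0165). Between the knockdowns the log2 change was -1.52 (2.87-fold, adjusted p = 0.000233). Within the slides the difference from EV ran from -0.67 to -0.62 in Gata2 KD and from 0.73 to 1.05 in Pu.1 KD. Of the 5 genes, Epor had the smallest changes. Its Gata2 KD call was lost without any 1 EV array, any 1 Gata2 KD array or Pu.1 KD replicate 1 or 2 (changes -0.69 to -0.59, adjusted p 0.0557 to 0.118), and its Pu.1 KD call was lost without EV replicate 1 or 2 or any 1 Pu.1 KD array (changes 0.77 to 0.93, adjusted p 0.0528 to 0.07).

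Kel encodes the Kell blood group protein, a membrane metalloprotease of the neprilysin family. Levels were -0.20, 0.13 and -0.08 in EV, -1.02, -1.11 and -1.45 in Gata2 KD and 2.13, 2.32 and 2.01 in Pu.1 KD. Every Pu.1 KD array stood far above the other 6 arrays. The means were -0.05 ± 0.17, -1.19 ± 0.23 and 2.15 ± 0.16 in EV, Gata2 KD and Pu.1 KD (SD, n = 3 each). In Pu.1 KD the log2 change was 2.20 (SE 0.17, 4.6-fold higher, adjusted p = 0.00127), the largest rise of the 9 genes and 25 in rank by p among all tested probes. In Gata2 KD it was -1.14 (SE 0.17, 2.21-fold lower, adjusted p = 0.0058). The knockdowns differed by a log2 change of -3.34, which is 10.2-fold (adjusted p = 8.3e-06). The Pu.1 KD difference was almost the same on each slide, from 2.19 to 2.21. Neither of the Kel calls against EV was lost when any 1 array was left out.

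Aqp1, the water channel that carries the Colton blood group, read 0.16, 0.88 and -0.14 in EV, -0.90, -1.46 and -1.64 in Gata2 KD and 1.72, 1.83 and 1.83 in Pu.1 KD. The EV arrays were spread widely and the Pu.1 KD arrays narrowly, with means of 0.30 ± 0.53 and 1.79 ± 0.06, and the Gata2 KD mean was -1.33 ± 0.39 (SD, n = 3 each). This gave a log2 change of -1.63 in Gata2 KD (SE 0.28, 3.1-fold lower, adjusted p = 0.0126), the largest fall of the 9 genes. In Pu.1 KD the log2 change was 1.50 (SE 0.28, 2.82-fold higher, adjusted p = 0.0326). The direct comparison gave -3.13 (8.73-fold, adjusted p = 0.000217). On each slide Gata2 KD was below EV, by -1.80 to -1.32, and Pu.1 KD above it, by 0.95 to 1.86. Without Gata2 KD replicate 2 or 3 the Gata2 KD call of Aqp1 was lost (changes -1.57 and -1.48, adjusted p 0.0653 and 0.0585). Its Pu.1 KD call was lost without EV replicate 1 or 3, Gata2 KD replicate 2 or 3 or any 1 Pu.1 KD array (changes 1.28 to 1.53, adjusted p 0.0536 to 0.125).

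Tspan33 encodes a tetraspanin, a membrane scaffold protein of the group that binds the protease ADAM10. Its brighter probe read -3.21, -2.86 and -2.81 in EV, -4.09, -3.76 and -3.87 in Gata2 KD and -1.67, -1.65 and -2.0 in Pu.1 KD. These levels lie far below the 75th percentile, but the probe was well above background on all 9 arrays. Means were -2.96 ± 0.22, -3.91 ± 0.17 and -1.77 ± 0.19 in EV, Gata2 KD and Pu.1 KD (SD, n = 3 each). The log2 changes were -0.94 in Gata2 KD (SE 0.17, 1.92-fold lower, adjusted p = 0.0164) and 1.19 in Pu.1 KD (SE 0.17, 2.28-fold higher, adjusted p = 0.0119). The direct comparison gave -2.13 (adjusted p = 0.000119). The dimmer Tspan33 probe, well above background on 8 arrays, was called in no comparison. Its log2 changes were -0.51 (95% confidence interval -1.49 to 0.47) in Gata2 KD, 0.17 (-0.81 to 1.15) in Pu.1 KD and -0.67 (-1.65 to 0.31) between the knockdowns, and 67.4% of its variance over the arrays lay between slides. The 2 probes therefore disagree on the call. Normexp background correction brought the changes of the brighter probe to -0.43 in Gata2 KD (adjusted p = 0.0791), 0.74 in Pu.1 KD (adjusted p = 0.00757) and -1.17 between the knockdowns (adjusted p = 7.74e-05), and the Gata2 KD change was -0.80 with quantile normalization (adjusted p = 0.0938) and -0.57 with the deposited log2 values (adjusted p = 0.0651). The Gata2 KD call of the brighter probe was lost without EV replicate 2 or 3 or Gata2 KD replicate 1 or 3 (changes -0.96 to -0.85, adjusted p 0.051 to 0.0666), and the Pu.1 KD call without Pu.1 KD replicate 1 or 2 (changes 1.14 and 1.13, adjusted p 0.066 and 0.058).

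Slc4a1, the band 3 anion exchanger, and Ermap, which carries the Scianna blood group, did not pass the test in any comparison. Slc4a1 read -1.39, -2.17 and -1.90 in EV, -2.15, -1.73 and -1.45 in Gata2 KD and -2.02, -2.24 and -1.44 in Pu.1 KD. The 3 groups covered the same range. On slide 1 the 3 groups read -1.39, -1.45 and -1.44, and on slide 3 they read -2.17, -2.15 and -2.24. Of the variance of Slc4a1 over the arrays, 94.8% lay between slides and 2.57% between groups, whereas for Kel 1.11% lay between slides and 98.8% between groups. The log2 changes of Slc4a1 were 0.04 in Gata2 KD (95% confidence interval -0.62 to 0.71, adjusted p = 0.992) and -0.08 in Pu.1 KD (-0.75 to 0.59, adjusted p = 1). These intervals come from the fit without a slide term, so they include the spread between slides. Within the slides its difference from EV ran from -0.06 to 0.17 in Gata2 KD and from -0.12 to -0.06 in Pu.1 KD. The Ermap probe was well above background on 1 EV array, 1 Gata2 KD array and all 3 Pu.1 KD arrays. Its levels were -6.53, -7.13 and -2.94 in EV, -5.51, -5.92 and -4.32 in Gata2 KD and -5.04, -5.73 and -5.44 in Pu.1 KD. EV replicate 3 stood apart from every other array. With intervals of -1.97 to 2.54 in Gata2 KD and -2.13 to 2.39 in Pu.1 KD, a change of Ermap of several fold in either direction could not be detected.

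**Figure D2:**
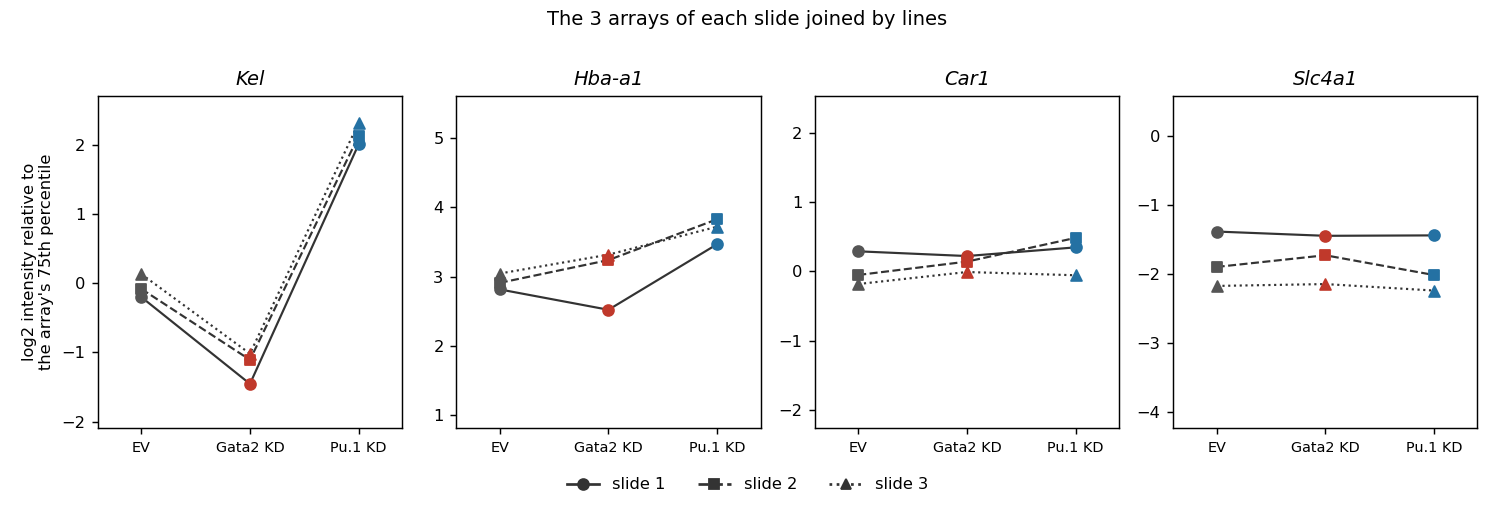
Levels of Kel, Hba-a1, Car1 and Slc4a1 (y axis, log2 intensity relative to the array's 75th percentile, the same span in each panel) with the 3 arrays of each slide joined by a line. The lines of Kel run nearly parallel, close to each other, and bend with the group. Those of Slc4a1 are nearly flat and stand apart by slide, with slide 1 near -1.4 and slide 3 near -2.2.

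Car2 and Car1 encode cytosolic carbonic anhydrases, enzymes that interconvert carbon dioxide and bicarbonate, and Car2 passed the test in all 3 comparisons. Car2 read 2.34, 2.88 and 2.49 in EV, 1.78, 1.52 and 1.49 in Gata2 KD and 3.70, 3.92 and 3.50 in Pu.1 KD, and no 2 groups overlapped. The group means were 2.57 ± 0.28, 1.60 ± 0.16 and 3.71 ± 0.21 (SD, n = 3 each). The log2 change of Car2 was -0.98 in Gata2 KD (SE 0.19, 1.97-fold lower, adjusted p = 0.0212), 1.13 in Pu.1 KD (SE 0.19, 2.2-fold higher, adjusted p = 0.0196) and -2.11 between the knockdowns (4.32-fold, adjusted p = 0.000201). Car1, the other erythroid carbonic anhydrase, read 0.29, -0.18 and -0.05 in EV, -0.01, 0.14 and 0.22 in Gata2 KD and 0.48, -0.06 and 0.35 in Pu.1 KD. All 3 groups of Car1 overlapped. Its log2 changes were 0.10 in Gata2 KD (95% confidence interval -0.34 to 0.54, adjusted p = 0.96) and 0.24 in Pu.1 KD (-0.20 to 0.68, adjusted p = 0.812), and the intervals leave out the sizes measured for Car2. The Gata2 KD call of Car2 was lost without EV replicate 2 or Gata2 KD replicate 2 or 3 (changes -0.94 to -0.82, adjusted p 0.0661 to 0.103). The Pu.1 KD call of Car2 was lost without EV replicate 1 or 3 or any 1 Pu.1 KD array (changes 1.02 to 1.24, adjusted p 0.0548 to 0.0895).

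Car2 and Car1 lie in a run of 4 neighboring protein-coding genes on chromosome 3, in the order Car13, Car1, Car3 and Car2. Car13 read 2.56, 2.94 and 3.16 in EV, 1.17, 1.21 and 0.88 in Gata2 KD and 3.51, 3.45 and 3.19 in Pu.1 KD. It fell in Gata2 KD with a log2 change of -1.80 (SE 0.19, adjusted p = 0.000928), and its change in Pu.1 KD, 0.50, did not pass the test (adjusted p = 0.312), although its Pu.1 KD arrays all lay above its EV arrays. Between the knockdowns Car13 changed by -2.30 (adjusted p = 0.000135). Car3 had changes of -0.50 in Gata2 KD (adjusted p = 0.155) and -0.52 in Pu.1 KD (adjusted p = 0.179). Neither passed the test, although the Car3 arrays of both knockdowns all lay below its EV arrays. At the adjusted threshold the genes at the ends of the run, Car13 and Car2, were called in Gata2 KD and the 2 between them were not. Of 11 other carbonic anhydrases tested, Car13 was the one called in Gata2 KD, where 2.96% of all probes were called higher and 2.24% lower. In Pu.1 KD 0 were called with limma (1 higher and 1 lower at an unadjusted p under 0.05), against 1.27% and 1.42% of all probes.

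**Figure D3:**
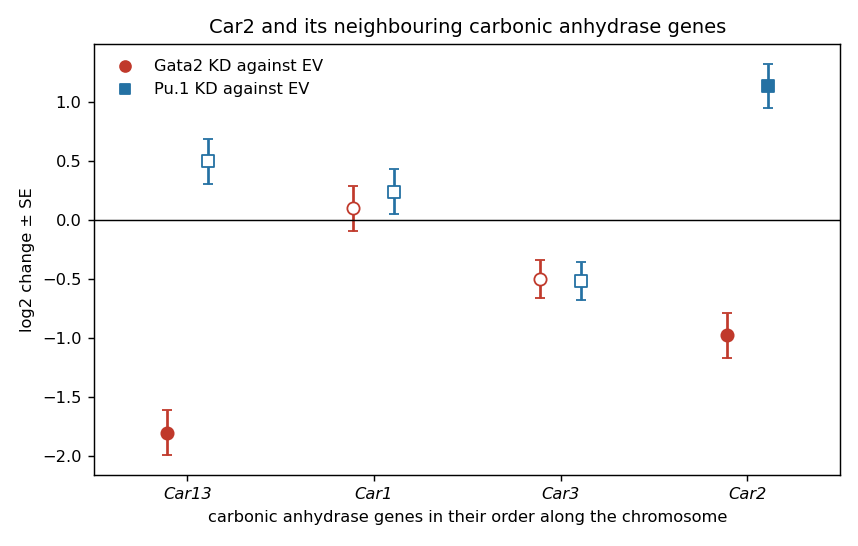
Log2 change ± SE (y axis) of Car13, Car1, Car3 and Car2 in their order along the chromosome, for Gata2 KD (circles) and Pu.1 KD (squares) against EV. Filled symbols passed an adjusted p under 0.05: Car13 at -1.80 and Car2 at -0.98 in Gata2 KD, and Car2 at 1.13 in Pu.1 KD.

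Hba-a1, which encodes the alpha chain of adult hemoglobin, had intensities between 3095 and 6588 on all 9 arrays. Its probe may also read the near-identical Hba-a2, which has no probe of its own here. The levels were 2.81, 3.04 and 2.91 in EV, 3.32, 3.24 and 2.52 in Gata2 KD and 3.83, 3.72 and 3.47 in Pu.1 KD. All Pu.1 KD arrays lay above all others, and Gata2 KD replicate 3 was the lowest array. The log2 change in Pu.1 KD was 0.75 (95% confidence interval 0.23 to 1.27), which missed the threshold (adjusted p = 0.163, limma). In Gata2 KD it was 0.10 (-0.41 to 0.62, adjusted p = 0.968). With the slide as a block the Pu.1 KD change of 0.75 passed (adjusted p = 0.045), and it passed with normexp background correction (change 0.68, adjusted p = 0.0234) and with the log2 values the authors deposited (change 0.73, adjusted p = 0.00992). Under these 3 alternatives the direct comparison of Hba-a1 passed as well (changes -0.65, -0.61 and -0.63, adjusted p 0.036, 0.0173 and 0.0092), against -0.65 and an adjusted p of 0.141 otherwise.

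**Figure D4:**
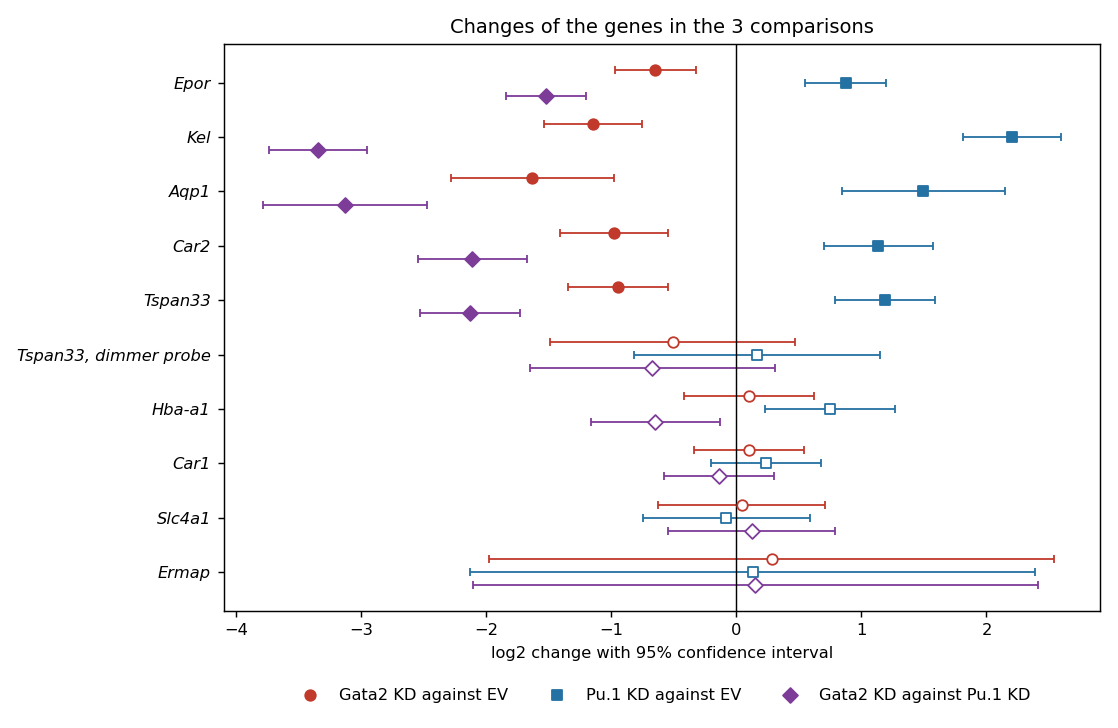
Log2 change with 95% confidence interval (x axis) of each probe in Gata2 KD against EV (circles), Pu.1 KD against EV (squares) and Gata2 KD against Pu.1 KD (diamonds), with filled symbols for an adjusted p under 0.05. Epor, Kel, Aqp1, Car2 and the brighter Tspan33 probe are filled in all 3 comparisons, from -3.34 for Kel between the knockdowns to 2.20 for Kel in Pu.1 KD, and the other probes in none.

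Over the 9 arrays the levels of Epor, Kel, Aqp1, Car2 and Tspan33 correlated with each other with Pearson r from 0.935 (Aqp1 and Epor) to 0.985 (Aqp1 and Car2). These arrays fall into 3 groups, so r mainly reflects the group means and is given as a description. Among 14465 genes above background on every array, the levels most like Epor were those of Enc1, Lmna and Prmt2 (r = 0.994 each), those most like Kel were D630039A03Rik (0.997), Gimap9 (0.995) and Celsr1 (0.994), and those most like Aqp1 were Ell2 (0.994), Acss1 (0.993) and Plekha5 (0.992). The levels most like Car2 were Slamf1 (0.994), Epdr1 (0.991) and Abcg2 (0.991), of which Abcg2 is a heme and urate exporter that carries the Junior blood group. Nearest to Tspan33 were Myh10 (0.993), Inka2 (0.992) and Tmem63b (0.992).

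Other genes of the erythroid program were taken from lists and are given here as counts. For these and the later lists, the shares of all tested probes serve as the reference. They were 2.96% called higher and 2.24% lower in Gata2 KD, and 1.27% higher and 1.42% lower in Pu.1 KD. Of 25 tested erythroid skeleton and blood group genes, 6 were lower and 1 higher in Gata2 KD than in EV (median change -0.16), and 3 were higher and 1 lower in Pu.1 KD (median 0.25). The complement regulator Cd55, the Cromer blood group protein, fell most in Gata2 KD (change -2.53, adjusted p = 4.74e-05), followed by Art4, the Dombrock blood group protein (-1.44, adjusted p = 0.00466), while stomatin (Stom), a membrane-associated protein, rose (1.57, adjusted p = 0.000301). In Pu.1 KD the largest changes were those of the skeleton protein Add2 (1.53, adjusted p = 0.0442), Abcg2 (1.35, adjusted p = 0.00551) and the urea transporter Slc14a1, the Kidd blood group protein (1.02, adjusted p = 0.015). Abcg2 was also lower in Gata2 KD (-1.07, adjusted p = 0.00604). Of 6 other globin genes tested, 0 were called in either comparison with limma (2 lower in Gata2 KD and 1 higher in Pu.1 KD at an unadjusted p under 0.05), and Hbb-bt, the adult beta-globin with a probe here, changed by -0.71 in Gata2 KD (adjusted p = 0.124) and -0.07 in Pu.1 KD (adjusted p = 1). Of 11 red cell enzymes, Nt5c3 (-1.26, adjusted p = 0.00103) and Bpgm (-0.94, adjusted p = 0.00492) were lower in Gata2 KD, and Gpx1, which reduces peroxides, was lower in Pu.1 KD (-2.60, adjusted p = 0.000213). The median change of the 11 enzymes was 0.28 in Gata2 KD and -0.11 in Pu.1 KD. None was called higher with limma, and 2 were higher in Gata2 KD at an unadjusted p under 0.05.

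Downstream of the erythropoietin receptor, 15 signaling genes were tested. The paper's self-renewal medium held the cytokine IL-3, and erythropoietin was listed for erythroid differentiation. The counts therefore describe the levels of these genes and not a response to erythropoietin. In Gata2 KD 3 were higher and 3 lower than in EV (median change -0.21), with the signal transducer Stat5a lower (-1.07, adjusted p = 0.00382) and the feedback inhibitor Socs3 (1.03, adjusted p = 0.00955) and the phosphatase Ptpn6 (0.87, adjusted p = 0.0247) higher. In Pu.1 KD 2 were lower and 0 higher (2 higher at an unadjusted p under 0.05), namely the kinases Jak2 (-1.04, adjusted p = 0.0125) and Lyn (-1.17, adjusted p = 0.0275). Epor itself rose in Pu.1 KD while the kinase that its protein uses, Jak2, fell. Among 10 erythroid transcription factors, 5 were lower and 1 higher in Gata2 KD (median -0.54), with Klf1 (-1.76, adjusted p = 0.00016), Gfi1b (-1.33, adjusted p = 0.00741) and Gata1 (-1.08, adjusted p = 0.0128) the largest falls. Klf1 alone was called in Pu.1 KD (0.84, adjusted p = 0.0174), and Gata1 changed there by 0.42 (adjusted p = 0.435).

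Relatives of the 9 genes in their own families are also given as counts. Of all tested probes, 2.96% were called higher and 2.24% lower in Gata2 KD against EV. The shares were 1.27% and 1.42% in Pu.1 KD against EV, and 4.86% and 4.77% between the knockdowns. At such shares a list of this size would hold few calls or none. Of 11 aquaporins, Aqp9 was lower in Gata2 KD (-1.09, adjusted p = 0.0136) and Aqp8 higher in Pu.1 KD (0.95, adjusted p = 0.0152). Of 6 genes of the ADAM10-binding tetraspanins and Adam10, of 7 other SLC4 bicarbonate transporters and of 6 neprilysin family genes, 0 were called against EV in either knockdown with limma. At an unadjusted p under 0.05 these families had 0, 2 and 0 genes in Gata2 KD and 1, 1 and 0 in Pu.1 KD. Between the knockdowns, 3 of the 11 aquaporins were called, all lower with Gata2 knocked down, namely Aqp9 (-0.79, adjusted p = 0.0384), Aqp8 (-0.79, adjusted p = 0.0115) and Aqp11 (-0.78, adjusted p = 0.00402). The tetraspanin Tspan5 (1.32, adjusted p = 0.00359) and the bicarbonate transporter Slc4a8 (1.41, adjusted p = 0.00181) were higher in that comparison. Adam10, the partner of the Tspan33 protein, changed by -0.04 in Gata2 KD (adjusted p = 0.986) and -0.18 in Pu.1 KD (adjusted p = 0.89).

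**Figure D5:**
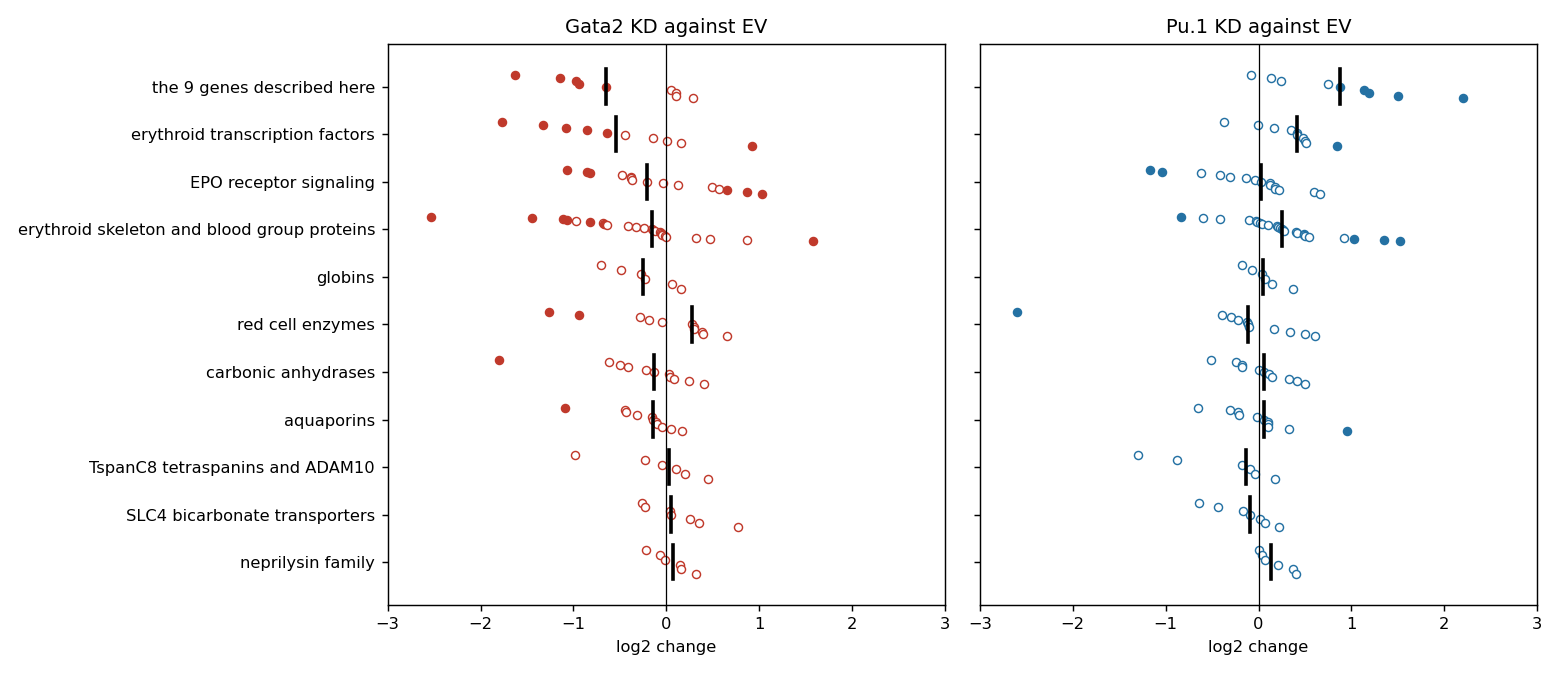
Log2 change (x axis) of single genes in Gata2 KD (left) and Pu.1 KD (right) against EV, by list (y axis), with filled points for an adjusted p under 0.05 and a vertical bar at the list median. The median of the 9 genes described here is -0.65 on the left and 0.87 on the right, and in both panels the filled points of the other lists lie mostly among the transcription factors, the signaling genes and the skeleton and blood group proteins.

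Of 11 erythroid markers tested, 3 of which are among the 9 genes (Epor, Slc4a1 and Hba-a1), 3 were lower in Gata2 KD (Klf1, Gata1 and Epor) and 2 higher in Pu.1 KD (Epor and Klf1). Their mean level ran from -1.02 to -0.57 in EV, from -1.53 to -1.32 in Gata2 KD and from -0.62 to -0.38 in Pu.1 KD, so EV and Pu.1 KD overlapped. Alas2, the erythroid enzyme of heme synthesis, changed by -0.27 in Gata2 KD (adjusted p = 0.844) and -0.13 in Pu.1 KD (adjusted p = 0.989). Among markers of other blood cells, the neutrophil and eosinophil means separated all 3 groups, and the other means overlapped between EV and a knockdown. The mean level of 12 neutrophil markers ran from 0.81 to 0.99 on the EV arrays, from 3.76 to 4.02 in Gata2 KD and from -0.58 to -0.41 in Pu.1 KD, with 11 of the 12 called higher in Gata2 KD and 9 called lower in Pu.1 KD. Monocyte and macrophage markers (5 of 10 called higher in Gata2 KD and 1 lower in Pu.1 KD) ran from -2.06 to -1.58, 0.31 to 0.41 and -2.14 to -1.68 in EV, Gata2 KD and Pu.1 KD. Eosinophil markers (2 of 6 higher in Gata2 KD, 4 lower in Pu.1 KD) ran from -1.57 to -1.25, -0.49 to -0.33 and -2.82 to -2.61. Megakaryocyte markers (2 of 11 higher and 2 lower in Gata2 KD, 4 higher and 1 lower in Pu.1 KD) ran from 1.13 to 1.17, 1.1 to 1.31 and 1.69 to 1.80. Mast cell and basophil markers (7 of 10 lower in Gata2 KD, 1 higher and 3 lower in Pu.1 KD) ran from 1.58 to 1.78, 0.03 to 0.18 and 1.50 to 1.62. Progenitor markers (3 of 10 higher and 1 lower in Gata2 KD, 1 higher and 1 lower in Pu.1 KD) ran from -0.91 to -0.41, -0.15 to 0.11 and -0.63 to -0.37. The part of these cell types in the changes of Epor, Kel, Aqp1, Car2 and Tspan33 was not tested.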

How the data were processed

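FDCPmix RNA (150 ng per sample) was Cy3-labeled for 9 Agilent whole mouse genome arrays, with groups and replicate numbers taken from the sample titles. The authors deposited each array's Agilent Feature Extraction 10.1.1.1 file, in which the processed intensity is background-subtracted within its own array but not scaled across arrays. A second deposited table, of log2 values with processing not stated in detail, served as an alternative. Per array, its values correlated at 0.997 to 0.9999 with the log2 median signal before background subtraction. With the log2 processed intensity they correlated at 0.959 to 0.98.

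Control spots were left out, outlier-flagged spots were set to missing, spots of a probe were averaged, and levels were log2 processed intensity minus the array's 75th percentile. Probes well above background on at least 3 arrays with 2 values per group were tested (36585 of 41174). Probes were named by accession through a RefSeq table (GRCm38.p6), which named 23374. The probe with the highest mean level stood for a gene. Tests used limma 3.58.1 under R 4.3.3 (group means over all 9 arrays, two-sided, Benjamini-Hochberg over all tested probes, threshold 0.05), and the fit was tested on simulated data.

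The genes and lists were chosen with earlier results of these data known. The genes named were the 9 genes, the targeted genes, Gata1, up to 3 called genes with the largest change per list and comparison, and the 3 genes closest to each called gene. Car3, Alas2, Hbb-bt and Adam10 lie outside that rule and were chosen after their values were seen. Alternatives were the replicate number or the slide as a block, normexp (offset 50), quantile normalization, median scaling, no filter, a filter on all 9 arrays, flagged spots kept, the deposited log2 values, trend and robust settings, a fit of 2 groups only, and each array left out.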

Additional observations from a re-analysis of the deposited data

How the results depend on the processing

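The direct comparison called 5 genes lower under the 20 alternatives except 3 (the slide block, normexp and the deposited log2 values), which called 6 there and 6 higher in Pu.1 KD against EV, Hba-a1 being the one added. No alternative called any of the 9 genes higher in Gata2 KD or lower in Pu.1 KD against EV. The 5 calls in Gata2 KD against EV became 4 each with normexp, quantile normalization and the deposited values, 2 with the replicate block, 0 with median scaling and 1 with only the groups compared, and ran from 1 to 5 when 1 array was left out. The 5 calls in Pu.1 KD became 1 with the replicate block, 3 with median scaling and 1 with only the groups compared, and ran from 1 to 5 when 1 array was left out. Over all probes, the higher calls in Pu.1 KD fell from 465 to 101, 188 and 97 with those settings. The lower calls over all probes in Gata2 KD fell from 818 to 427, 364 and 405 in the same order. The replicate block assumes that equal numbers pair samples. Deviations of same-numbered arrays from their group means correlated at -0.55 to 0.35 on different slides and at 0.52 to 0.65 on a shared slide. For arrays with different numbers the ranges were -0.63 to 0.35 and -0.04 to 0.72. The numbers were therefore not taken as pairs. The main fit holds no term for the slide, and the slide block is the alternative that does. With median scaling, 69.7% of all called probes in Gata2 KD against EV were higher (839 higher and 364 lower). The main fit called 1084 higher and 818 lower. Under the other alternatives the share called higher ran from 51.4% (slide block) to 65.4% (without EV replicate 3). The cause of these differences was not tested, except that the settings that leave arrays out fit fewer of them.

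Changes near 0 that were never called turned sign. Slc4a1 in Gata2 KD was -0.032 with the deposited values. Ermap was -0.11 in Gata2 KD and -0.13 in Pu.1 KD with normexp, and -0.054, -0.0027 and -0.051 in Gata2 KD, Pu.1 KD and the direct comparison with the deposited values. With 1 array left out, Car1 in Gata2 KD ran from -0.0010 to 0.24, Hba-a1 in Gata2 KD from -0.043 to 0.35, Slc4a1 from -0.13 to 0.26 in Gata2 KD, from -0.31 to 0.14 in Pu.1 KD and from -0.046 to 0.35 in the direct comparison, and Ermap from -0.52 to 1.58, from -0.67 to 1.43 and from -0.31 to 0.49. Ermap and the dimmer Tspan33 probe had intensities of 3.51 to 63.5 and 10.8 to 40, and were well above background on 5 and 8 arrays. The brighter Tspan33 probe ran from 25.7 to 158. The part of low signal in the missing calls was not tested.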
